A study of Mus musculus with 8 samples.

Results

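Genes that drive DNA replication and cell division were examined in intestinal crypts of control mice and of mice with an induced epithelial knockout of Setdb1. Setdb1 encodes an enzyme that methylates histone H3 to silence chromatin. The set holds 40 genes of 16958 with values, listed by name for their part in the cell cycle, with earlier results of these data known. Of these, 16 act in DNA replication or its onset, 22 act in or prepare mitosis, and the kinase genes Cdk2 and Cdk4 were kept apart. Their identifiers were all found in the deposited gene table, and each of the 40 averaged 1 FPKM or more over the 6 crypt libraries, the minimum that 10862 genes met. FPKM are fragments scaled for gene length and library size.

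The crypts came from C57BL/6 mice aged 8 weeks. The control library, WT, is from a setdb1fl/fl mouse, and the libraries VEMD2, VEMD3, VEMD4, VEMD6 and VEMD8 are from setdb1 iIEC-KO mice. Per the labels, the knockouts carried Villin-CreERT2, a recombinase under a promoter active throughout the intestinal epithelium, and a single gavage of tamoxifen at 800 mg/kg was given to them and to their WT littermates. The labels give neither the number of mice behind a library nor what VEMD stands for, so its numbers serve here as names and not as times. Each group is 1 library, so there is no replicate error and no test, and higher and lower describe these libraries alone. Gene values of the 2 stem cell samples of the series were not analysed here.

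A dividing cell copies its DNA in S phase and separates the copies in mitosis. Before S phase, Cdc6 and Cdt1 load the MCM helicase on origins, and cyclin E with its kinase Cdk2 starts replication once E2F transcription factors are released from the retinoblastoma protein family. Cyclin B with Cdk1 then drives mitosis, the spindle checkpoint holds chromosomes back until they are attached, and the anaphase promoting complex ends the phase. In the small intestine these genes are active in stem cells at the crypt base and in the transit-amplifying cells above them, and are silent in mature villus cells.

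The 40 genes differed in direction between knockout libraries. In VEMD2, VEMD3 and VEMD4 most replication genes were above WT, led by subunits of the MCM helicase, the ribonucleotide reductase subunit Rrm2 and cyclin E2. In VEMD6 all 40 genes were below WT, and in VEMD8 34 were, where 65.9% and 55.3% of all genes tested lay below WT. Ratios here are log2 of the knockout value against the WT value, each with 1 FPKM added. Their median over the 40 genes was 0.34, 0.29 and 0.11 in VEMD2, VEMD3 and VEMD4, and then -0.77 and -0.29 in VEMD6 and VEMD8. Over all 10862 genes tested it was 0.09, 0.12, 0.03, -0.23 and -0.06 in the same order. After each library was rescaled to its median gene, the medians of the 40 genes were 0.25, 0.16, 0.08, -0.51 and -0.22.

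**Figure D1:**
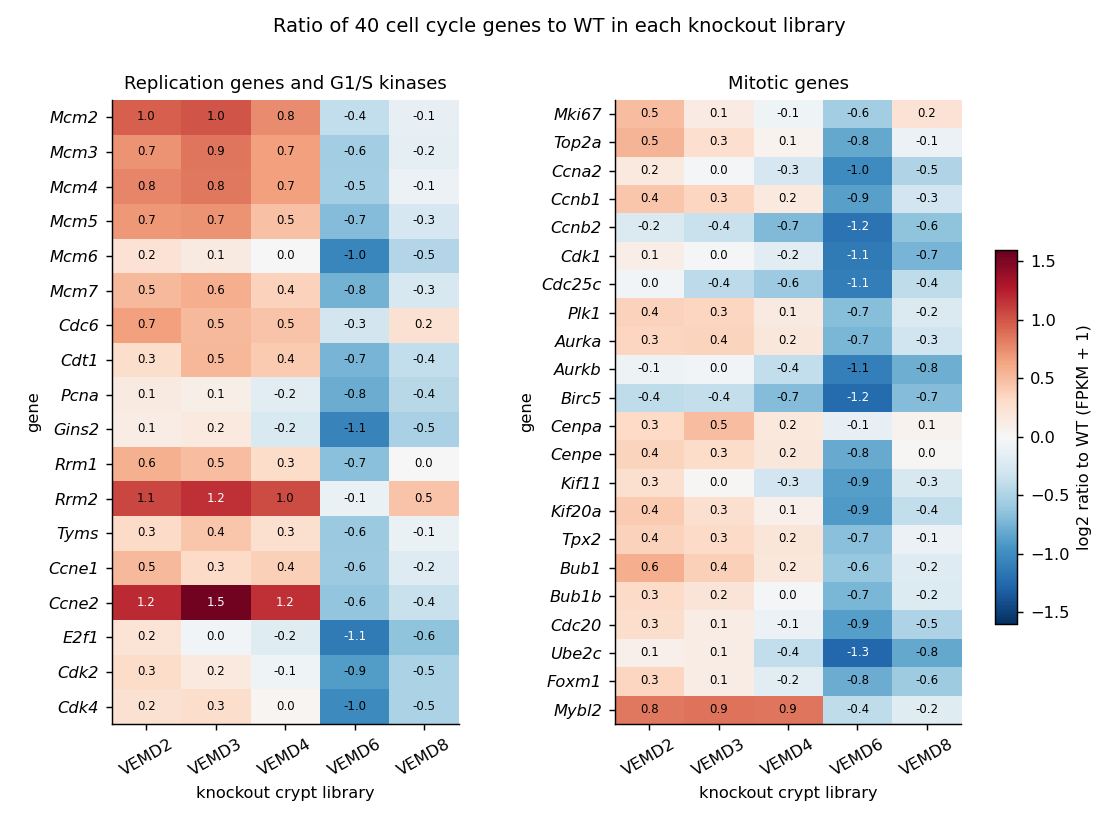
Colour and number give the log2 ratio of each of the 40 genes (rows) to WT in each knockout crypt library (columns), after adding 1 FPKM. The column of VEMD6 is below WT in all 40 rows, while Ccne2, Rrm2, Mybl2 and Mcm2 to Mcm5 are above WT in VEMD2, VEMD3 and VEMD4, and Birc5 and Ccnb2 are below WT in every column.

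Few members were 2-fold from WT outside VEMD6. The members at least 2-fold higher were Rrm2 and Ccne2 in VEMD2 and VEMD4, and these with Mcm2 in VEMD3. That is 2, 3 and 2 of 40, where 2.44%, 6.00% and 7.10% of all genes tested were 2-fold higher in VEMD2, VEMD3 and VEMD4. After rescaling, Rrm2 in VEMD2, at 0.97, and Mcm2 in VEMD3, at 0.87, were under the mark, which left 1, 2 and 2 members against 1.85%, 4.58% and 6.78% of genes tested. No member was 2-fold lower in those 3 libraries, where 2.39%, 4.62% and 5.04% of genes tested were, and none was 2-fold from WT in VEMD8, where 4.36% were higher and 5.21% lower. In VEMD6, 11 members were at least 2-fold lower, against 8.15% of all genes tested, and none was 2-fold higher, against 5.04%. The 11 are Mcm6, Gins2, E2f1, Cdk4, Ccna2, Ccnb2, Cdk1, Cdc25c, Aurkb, Birc5 and Ube2c. Rescaling took all 11 under the 2-fold mark, with 4.42% of all genes still 2-fold lower, so that count rests on the scale of the VEMD6 library.

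That VEMD6 was the lowest library did not rest on its scale to the same degree. All 40 genes had their lowest value of the 6 libraries in VEMD6, as 47.2% of all genes tested did. After rescaling 38 of the 40 still did, against 29.0% of genes tested. The exceptions were Rrm2 and the centromeric histone gene Cenpa, which were then lowest in WT. The highest value lay in VEMD2 for 21 members and in VEMD3 for 15, where 15.0% and 28.1% of genes tested had theirs, and in WT for the mitotic genes Ccnb2, Cdc25c, Aurkb and Birc5, as for 20.8% of genes tested. These counts moved with the scale. After rescaling the highest value lay in VEMD2 for 24 members, in VEMD3 for 10 and in WT for 5, with shares of all genes not computed. In bulk RNA, fewer dividing cells and less of these transcripts in each dividing cell cannot be told apart.

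Cell cycle promoters are shown because most members lay on the same side of WT in VEMD2, VEMD3, VEMD6 and VEMD8, and because such genes are known to be switched by a small set of DNA elements. The E2F site, bound by E2F factors, is typical of replication genes, and the cell cycle genes homology region (CHR), bound by the DREAM and MuvB complexes, is typical of mitotic genes. The 160 bases before the start of Mcm5 and Mcm6, of the helicase, and of the mitotic genes Cdk1, Cdc20, Ube2c and Mki67 are given 5′ to 3′ on the strand of the gene, from RefSeq on GRCm38.p6. The start is the outer end of the RefSeq gene. Capitals mark E2F letters (TTTGGCGC, TTTCGCGC, TTTCCCGC or TTTGCCGC) and CHR letters (TTTGAA), on either strand.
Mcm5 (chr8:75109308-75109467, plus strand): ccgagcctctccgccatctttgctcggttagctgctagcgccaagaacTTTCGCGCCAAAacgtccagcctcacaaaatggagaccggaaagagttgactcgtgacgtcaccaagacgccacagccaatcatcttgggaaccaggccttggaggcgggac
Mcm6 (chr1:128359706-128359865, minus strand): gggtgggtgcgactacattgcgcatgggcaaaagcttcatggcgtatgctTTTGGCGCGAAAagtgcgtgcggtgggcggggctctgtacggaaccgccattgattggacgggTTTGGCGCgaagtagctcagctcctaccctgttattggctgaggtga
Cdk1 (chr10:69352913-69353072, minus strand): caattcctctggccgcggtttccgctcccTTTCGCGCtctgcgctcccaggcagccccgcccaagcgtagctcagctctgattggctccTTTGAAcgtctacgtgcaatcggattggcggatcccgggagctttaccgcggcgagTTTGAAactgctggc
Cdc20 (chr4:118437344-118437503, minus strand): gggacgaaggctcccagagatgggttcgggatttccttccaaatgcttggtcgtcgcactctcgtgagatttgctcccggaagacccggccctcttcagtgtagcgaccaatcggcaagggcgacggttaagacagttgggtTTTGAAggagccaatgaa
Ube2c (chr2:164769769-164769928, plus strand): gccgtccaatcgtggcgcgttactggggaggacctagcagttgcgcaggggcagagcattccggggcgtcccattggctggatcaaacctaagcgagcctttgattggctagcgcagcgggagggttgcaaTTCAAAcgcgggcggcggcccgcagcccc
Mki67 (chr7:135716451-135716610, minus strand): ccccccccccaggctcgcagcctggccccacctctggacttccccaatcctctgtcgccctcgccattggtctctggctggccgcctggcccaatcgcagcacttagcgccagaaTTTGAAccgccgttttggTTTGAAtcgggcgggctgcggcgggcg

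In Mcm6 the E2F letters begin 110, 106 and 47 bases before the start, the first pair overlapping on opposite strands, and in Mcm5 an overlapping pair begins at 112 and 108 bases. Cdk1 holds an E2F match at 131 bases and CHR letters at 71 and 15 bases. The CHR letters begin 18 bases before the start in Cdc20, 29 in Ube2c, and 45 and 27 in Mki67. RefSeq promoters of 300 bases, from 250 before to 50 after the start of 1 transcript, were at hand for 31 of the 40 members, and for 11 of these that start lies inside the outer end of the gene. Of 13 replication genes among them, 6 held the E2F letters and 1 the CHR letters, and of 16 mitotic genes, 1 held the E2F and 11 the CHR letters. Among all 27025 genes with a promoter, 2.32% held the E2F letters and 18.1% the CHR letters. Among the 8804 of these that were also tested, the shares were 4.29% and 12.2%. The CCAAT box, CCAAT on either strand, was in 8 of the 13 and 14 of the 16, and in 37.9% of all. A match of letters is a description and not a bound site. All 40 members were lowest in VEMD6, so that trait cannot set promoters with E2F letters apart from those with CHR letters.

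Licensing genes load the replicative helicase, a ring of the subunits Mcm2 to Mcm7. Mcm2 (gene 17216, chromosome 6, 88883474 to 88898780 on GRCm38) stood at 19.3 FPKM in WT, at 38.3, 39.7 and 33.4 in VEMD2, VEMD3 and VEMD4, and then at 14.4 and 17.6 in VEMD6 and VEMD8. Mcm5 was at 30.35, 49.7, 50.5, 42.6, 18.4 and 24.9 FPKM in the same order. Both were well above WT in the first 3 knockout libraries and below it in the other two. Mcm3 and Mcm4 had log2 ratios of 0.72 and 0.78 in VEMD2, 0.85 and 0.84 in VEMD3, and 0.66 and 0.66 in VEMD4, and of -0.56 and -0.55 in VEMD6.

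Mcm6 departed from its partners in its ratios to the 1 WT library. It was at 53.5 FPKM in WT, at 63.2, 59.3 and 53.5 in VEMD2, VEMD3 and VEMD4, and then at 25.6 and 38.3 in VEMD6 and VEMD8, so that VEMD4 equalled WT and VEMD6 was the lowest. Its log2 ratios in VEMD2 and VEMD3 were 0.24 and 0.14, and the one in VEMD6 was -1.04, or -0.78 after rescaling. Mcm7 lay between, at 0.52, 0.58, 0.37, -0.75 and -0.25. The range of Mcm6 over all 6 libraries, 1.27 in log2 of FPKM plus 1, was near the 1.33 to 1.41 of the other subunits. The loaders Cdc6 and Cdt1 were above WT in VEMD2, VEMD3 and VEMD4 too. Cdc6 was the only licensing gene above WT in VEMD8, at 3.93 FPKM in WT and 4.86 there.

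**Figure D2:**
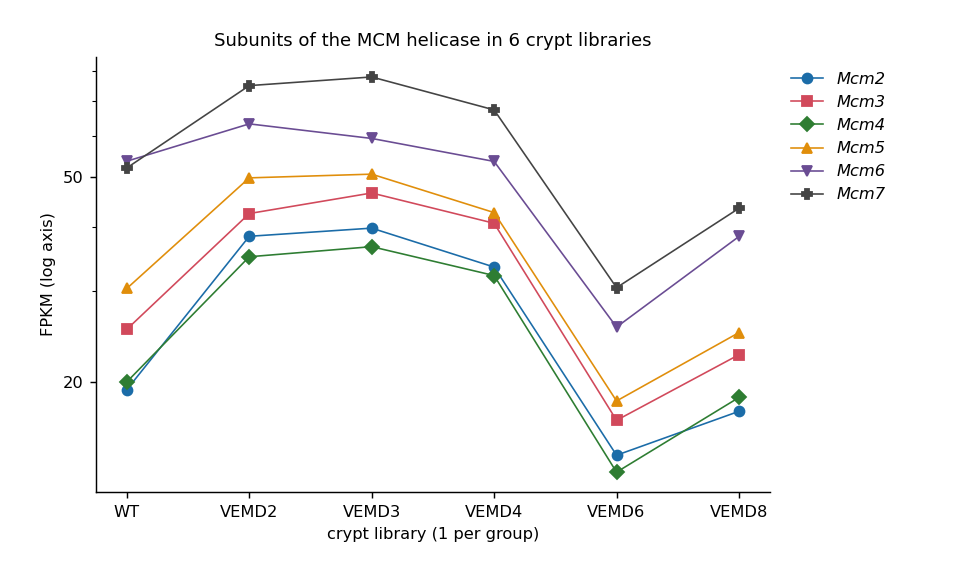
FPKM on a log axis of the 6 MCM helicase genes in each crypt library, 1 point a library; lines join the points of a gene. Mcm2, Mcm3, Mcm4 and Mcm5 stand above their WT level in VEMD2, VEMD3 and VEMD4, Mcm6 stays near it, and all 6 are lowest in VEMD6.

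At the replication fork, Pcna, the sliding clamp, and Gins2, of the helicase holoenzyme, stayed closer to WT than most licensing genes in VEMD2, VEMD3 and VEMD4. Pcna was at 197 FPKM in WT, at 218, 211 and 174 in VEMD2, VEMD3 and VEMD4, and then at 114 and 145 in VEMD6 and VEMD8. Gins2 was at 20.1, 21.8, 22.5, 16.8, 9.0 and 13.7 FPKM in the same order. Both were slightly above WT in VEMD2 and VEMD3 and below it in the other 3 knockout libraries, and rescaling turned the sign of Pcna in VEMD3.

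Genes of nucleotide supply were led by Rrm2, the regulatory subunit of ribonucleotide reductase (gene 20135, chromosome 12, 24708254 to 24714146 on GRCm38). Rrm2 was at 29.7 FPKM in WT, at 63.2, 68.0 and 62.5 in VEMD2, VEMD3 and VEMD4, and then at 27.5 and 41.2 in VEMD6 and VEMD8. It was thus above WT in every knockout library but VEMD6, where the log2 ratio was -0.10, or 0.16 after rescaling. In VEMD2 the ratio was 1.07, or 0.97 after rescaling. Rrm1, the catalytic subunit, had ratios of 0.57, 0.50, 0.29, -0.67 and 0.01 from VEMD2 to VEMD8, and Tyms, thymidylate synthase, of 0.30, 0.44, 0.26, -0.60 and -0.10.

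Of the regulators of S phase entry, Ccne2, or cyclin E2 (gene 12448, chromosome 4, 11190433 to 11204779 on GRCm38), had the widest range of all 40 genes. It was at 5.61 FPKM in WT, at 14.1, 18.3 and 13.9 in VEMD2, VEMD3 and VEMD4, and then at 3.28 and 4.17 in VEMD6 and VEMD8. The first 3 knockout libraries were each above WT, with log2 ratios of 1.19, 1.54 and 1.17, and the other two below it. The gene Ints8 overlaps Ccne2, and the labels do not say whether reads were counted by strand, so reads of the pair could be mixed. Ccne1, cyclin E1, had ratios of 0.52, 0.31, 0.38, -0.58 and -0.21.

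E2f1, a transcription factor of replication genes, did not share this range. It was at 6.08 FPKM in WT, at 7.24, 5.86 and 5.20 in VEMD2, VEMD3 and VEMD4, and then at 2.24 and 3.52 in VEMD6 and VEMD8, above WT in VEMD2 alone. Of the G1/S kinases, Cdk4, the partner of D cyclins, was at 155 in WT, at 184, 188 and 158 in VEMD2, VEMD3 and VEMD4, and then at 76.0 and 108 in VEMD6 and VEMD8. Cdk2 had log2 ratios of 0.29, 0.16, -0.07, -0.89 and -0.51. Both kinases were below WT in VEMD6 and VEMD8 and had log2 ratios from -0.07 to 0.29 in the other 3 libraries.

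Mitotic entry genes were near WT in VEMD2, VEMD3 and VEMD4, with a median of 0.15, -0.02 and -0.17 over 7 genes, and below it in VEMD6 and VEMD8, at -1.01 and -0.41. Cdk1, the mitotic kinase, was at 34.1 FPKM in WT, at 36.8, 33.7 and 30.1 in VEMD2, VEMD3 and VEMD4, and then at 15.0 and 19.9 in VEMD6 and VEMD8. Its 2 B cyclins differed in direction. Ccnb1 had log2 ratios of 0.44, 0.34 and 0.16 in VEMD2, VEMD3 and VEMD4, while Ccnb2 had -0.23, -0.35 and -0.71.

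Ccnb2 (gene 12442, chromosome 9, 70407689 to 70421554 on GRCm38) stood at 58.2 FPKM in WT, at 49.5, 45.3 and 35.2 in VEMD2, VEMD3 and VEMD4, and then at 25.1 and 36.8 in VEMD6 and VEMD8. All 5 knockout libraries were below WT. Cdc25c, the phosphatase that activates Cdk1, was also highest in WT, at 7.90 FPKM, though VEMD2 was nearly equal, at 7.64. It was at 5.68 and 4.94 in VEMD3 and VEMD4, and then at 3.12 and 5.69 in VEMD6 and VEMD8. Ccna2, cyclin A2 of S phase and G2, had log2 ratios of 0.15, -0.03, -0.27, -1.01 and -0.48. The kinase genes Plk1 and Aurka, which act at the centrosomes, were above WT in VEMD2, VEMD3 and VEMD4, at 0.14 to 0.37, and below it in VEMD6, at -0.69 and -0.73.

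Among spindle and centromere genes, Birc5, or survivin, of the chromosomal passenger complex (gene 11799, chromosome 11, 117849237 to 117855743 on GRCm38), stood at 123 FPKM in WT, at 92.6, 94.3 and 75.8 in VEMD2, VEMD3 and VEMD4, and then at 51.7 and 75.4 in VEMD6 and VEMD8. Its partner kinase Aurkb was at 32.1, 30.4, 31.2, 24.2, 14.5 and 18.2 FPKM. Both were highest in WT and lowest in VEMD6. Cenpa, the histone of centromeres, was the steadiest member and above WT in every knockout library but VEMD6, at 47.6 FPKM in WT, 67.6 in VEMD3, 43.4 in VEMD6 and 49.6 in VEMD8. The motor genes Kif11 and Kif20a and the spindle assembly factor Tpx2 had log2 ratios of -0.89, -0.91 and -0.67 in VEMD6. Cenpe, a kinetochore motor, had -0.81 in VEMD6 and 0.01 in VEMD8.

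The checkpoint and exit genes followed the mitotic median. Ube2c, the ubiquitin-conjugating enzyme of the anaphase promoting complex, was at 169 FPKM in WT, at 179.56, 183 and 128 in VEMD2, VEMD3 and VEMD4, and then at 70.5 and 95.6 in VEMD6 and VEMD8. Its ratio in VEMD6, -1.25, was the lowest of all members in any library. Cdc20, which activates that complex, had ratios of 0.29, 0.12, -0.09, -0.88 and -0.49. Bub1 and Bub1b, kinases of the spindle checkpoint, were above WT in VEMD2, at 0.58 and 0.31, and below it in VEMD6, at -0.61 and -0.74.

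Mki67, the antigen Ki-67 that coats mitotic chromosomes, was at 37.5 FPKM in WT, at 53.1, 41.1 and 35.8 in VEMD2, VEMD3 and VEMD4, and then at 25.2 and 44.2 in VEMD6 and VEMD8. Top2a, which untangles them, was at 81.7, 119, 99.0, 84.9, 45.9 and 76.4 FPKM. These common markers of dividing cells were thus above WT in VEMD2 and below it in VEMD6, with Mki67 above WT again in VEMD8. Of the transcription factors, Mybl2 was at 10.6 FPKM in WT, at 19.96, 20.3 and 20.1 in VEMD2, VEMD3 and VEMD4, and then at 7.82 and 9.16 in VEMD6 and VEMD8, the highest ratios of any mitotic gene in VEMD2, VEMD3 and VEMD4. Foxm1, which drives mitotic genes, had ratios of 0.35, 0.11, -0.19, -0.79 and -0.57.

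**Figure D3:**
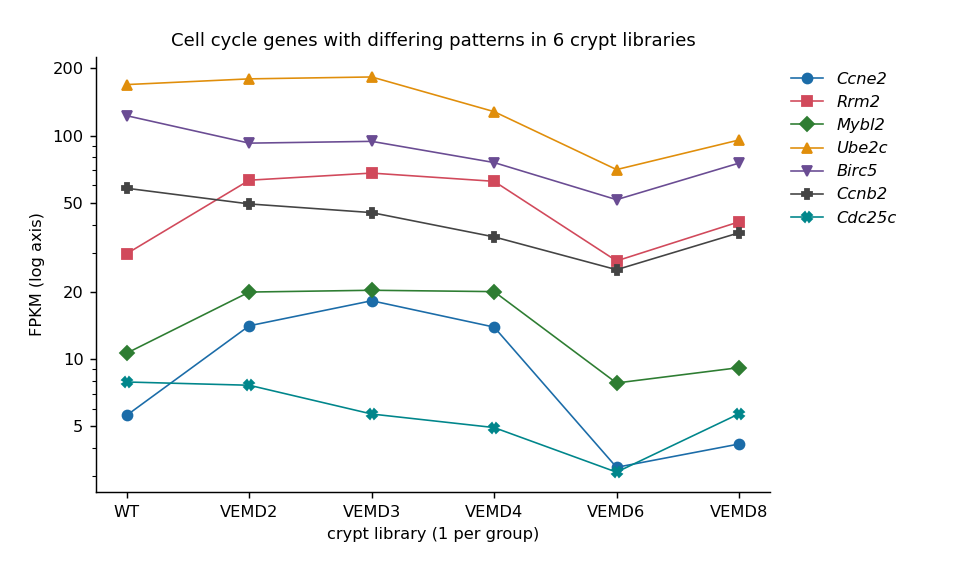
FPKM on a log axis of 7 cell cycle genes in each crypt library, 1 point a library; lines join the points of a gene. Ccne2, Rrm2 and Mybl2 are above WT in VEMD2, VEMD3 and VEMD4, whereas Birc5, Ccnb2 and Cdc25c are highest in WT, and all 7 are lowest in VEMD6.

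Replication and mitotic members were then set against each other. The 16 replication genes had median log2 ratios of 0.54, 0.52, 0.40, -0.65 and -0.23 from VEMD2 to VEMD8, and the 22 mitotic genes of 0.33, 0.17, -0.05, -0.84 and -0.31. The mitotic median was lower than the replication median by 0.22, 0.35, 0.45, 0.19 and 0.08. In VEMD2 all 16 replication genes were above WT, and 15 and 12 were in VEMD3 and VEMD4, where 18, 16 and 10 of the 22 mitotic genes were. Of all genes tested, 58.6%, 60.0% and 52.3% were above WT in these 3 libraries. After rescaling the mitotic median of VEMD3 was 0.04, with 11 genes above WT and 11 below, while the difference between the lists there was -0.36.

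The difference between lists was smaller in a wider set of genes of the same processes. A list of 47 other replication genes had medians of 0.33, 0.26, 0.03, -0.76 and -0.36, and one of 63 other mitotic genes had 0.26, 0.23, -0.01, -0.82 and -0.34. In VEMD3 and VEMD4 the median of the other replication genes thus lay under that of the 16 members and near that of the other mitotic genes. From VEMD2 to VEMD4, 0, 1 and 1 other replication genes were 2-fold higher and 0, 1 and 1 lower, and 2, 3 and 2 other mitotic genes were 2-fold higher and 0, 1 and 2 lower. Of all genes tested, 2.44%, 6.00% and 7.10% were 2-fold higher in these libraries and 2.39%, 4.62% and 5.04% lower. In VEMD6 none of these other genes was 2-fold higher, against 5.04%. There, 47 of 47 other replication genes and 61 of 63 other mitotic genes were below WT, as 65.9% of all genes tested were, and 7 and 21 were at least 2-fold lower, against 8.15%, or 2 and 3 after rescaling, against 4.42%. In VEMD8, 2 and 3 were 2-fold lower, against 5.21%.

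**Figure D4:**
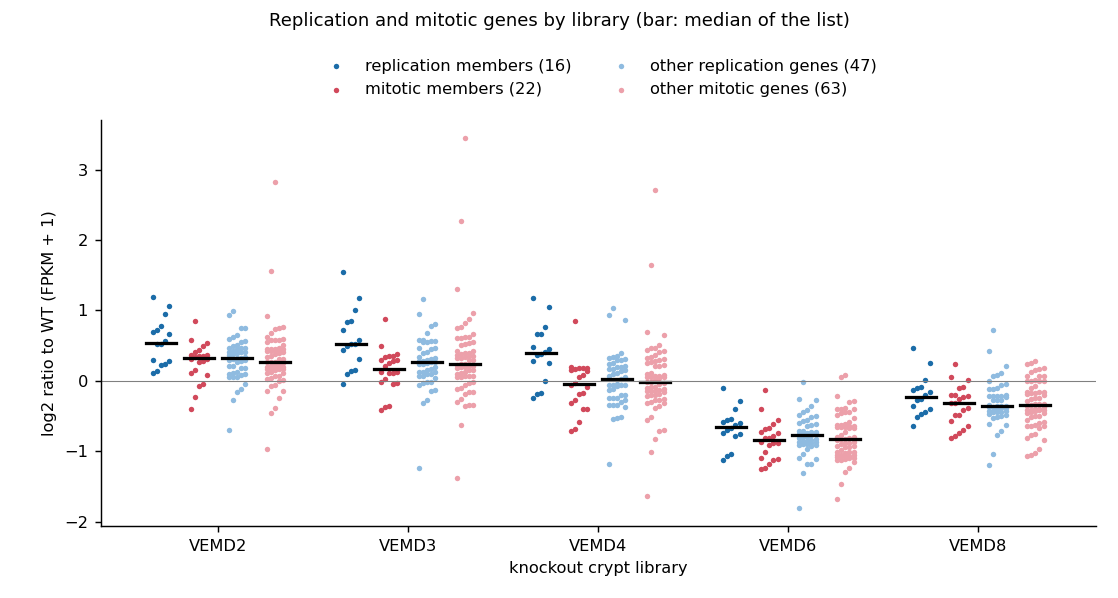
Each point is the log2 ratio of 1 gene to WT in 1 knockout library, after adding 1 FPKM, and bars mark the median of a list. The median of the replication members stands above that of the mitotic members in VEMD3 and VEMD4, while the 47 other replication genes and 63 other mitotic genes have medians close to each other, and the medians of all 4 lists lie below WT in VEMD6.

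Some of these other genes differed widely from their list. Psrc1, a spindle protein gene known as a target of p53, was at 2.55 FPKM in WT, at 24.2, 37.7 and 22.3 in VEMD2, VEMD3 and VEMD4, and then at 0.85 and 0.70 in VEMD6 and VEMD8. Gtse1, which restrains p53 in G2, was at 8.20, 26.2, 43.3, 27.9, 5.35 and 7.53 FPKM. Both were far above WT in the same 3 libraries as Ccne2 and Rrm2. Tk1, thymidine kinase, was below WT in every knockout library instead, at 50.2 FPKM in WT, at 30.7, 20.7 and 21.5 in VEMD2, VEMD3 and VEMD4, and then at 13.7 and 21.4 in VEMD6 and VEMD8. Cdca3, a trigger of mitotic entry, was at 107 in WT but at 54.1, 40.3, 33.7, 38.0 and 51.1 among the knockout libraries. Nusap1, which bundles spindle microtubules, was at 29.0 in WT and 8.39 in VEMD6, and Lig1, the replicative ligase, at 33.0 and 12.7.

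All ratios so far share the 1 WT library, so the knockout libraries were also compared with one another. VEMD6 was below VEMD2, VEMD3 and VEMD4 in all 40 genes, with medians of -1.17, -1.08 and -0.87, where all genes tested had -0.34, -0.38 and -0.28. There were 34, 26 and 12 members at least 2-fold lower, against 12.9%, 15.7% and 9.62% of genes tested. After rescaling the medians were -0.83, -0.69 and -0.58, still with all 40 genes lower, where all genes tested had -0.02, -0.03 and -0.02. Then 3, 4 and 1 members were 2-fold lower. Shares of all genes for these rescaled counts, and for genes lower by any amount, were not computed between knockout libraries. The replication members differed more than the mitotic ones in each case, with medians of -1.26, -1.25 and -1.08 against -1.14, -1.0 and -0.79. The lists of other replication and mitotic genes were not compared between knockout libraries.

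VEMD8 lay between. Against VEMD2, VEMD3 and VEMD4, 40, 38 and 36 of the 40 genes were lower in VEMD8, with medians of -0.70, -0.62 and -0.39, where all genes tested had -0.16, -0.20 and -0.10, and 3, 4 and 2 were 2-fold lower, against 4.24%, 4.96% and 4.91% of genes tested. All 40 genes were higher in VEMD8 than in VEMD6, with a median of 0.49, where all genes tested had 0.18, and none was 2-fold higher, against 1.45% of genes tested. After rescaling that median was 0.31, where all genes tested had 0.008, and 39 genes were higher. In VEMD4, 38 of the 40 genes were below VEMD2, with a median of -0.17 for replication, -0.34 for mitotic and -0.09 for all genes tested. After rescaling 34 were below VEMD2, with medians of -0.11, -0.27 and -0.03. The share of all genes below VEMD2 was not computed.

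Genes that hold or release the cycle in G1 followed other patterns. Cdkn1a, which encodes the kinase inhibitor p21, was at 87.6 FPKM in WT, at 201, 311 and 295 in VEMD2, VEMD3 and VEMD4, and then at 239.95 and 125 in VEMD6 and VEMD8, above WT in all 5 knockout libraries. Ccng1, cyclin G1 and a target of p53, was at 21.98 in WT, at 116, 174 and 121 in VEMD2, VEMD3 and VEMD4, and then at 22.7 and 22.8 in VEMD6 and VEMD8. High Cdkn1a was thus found beside high Mcm2, Rrm2 and Ccne2 in VEMD2, VEMD3 and VEMD4, and beside low values of the members in VEMD6. Cdkn2c, the inhibitor p18, was at 9.98 in WT, at 6.57, 3.91 and 3.54 in VEMD2, VEMD3 and VEMD4, and then at 1.68 and 2.39 in VEMD6 and VEMD8. Cdkn2b, the inhibitor p15, was also lower than WT in all 5 knockout libraries, at 51.9 in WT and 12.8 in VEMD4. Ccng1 was counted in the list of inhibitors and pocket proteins. Over the 16 tested genes of that list the medians were -0.24, -0.38, -0.49, -0.46 and -0.69, with 2, 2, 3, 1 and 1 genes at least 2-fold higher and 1, 5, 5, 7 and 5 lower. Of all genes tested, 2.44%, 6.00%, 7.10%, 5.04% and 4.36% were 2-fold higher, and 2.39%, 4.62%, 5.04%, 8.15% and 5.21% lower. After rescaling the median of these 16 genes in VEMD6 was -0.22, with 2 genes 2-fold higher and 3 lower, against 7.95% and 4.42%.

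The D cyclins pair with Cdk4 and Cdk6 in G1. Ccnd1 was at 104 FPKM in WT, at 118, 124 and 103 in VEMD2, VEMD3 and VEMD4, and then at 30.1 and 33.2 in VEMD6 and VEMD8. Ccnd2 was at 54.4, 72.5, 81.5, 60.7, 16.2 and 26.9 FPKM, and Myc, the growth factor-driven transcription factor, at 44.0, 47.5, 53.1, 46.5, 13.2 and 18.2. These 3 genes were far below WT in VEMD6 and VEMD8 and close to or above it elsewhere. The other D cyclin, Ccnd3, named after its values were seen, was above WT in all 5 knockout libraries instead, at 17.0 and 22.9 FPKM in VEMD6 and VEMD8 against 15.4 in WT. The list of 15 tested G1 drivers had medians of 0.28, 0.27, 0.15, -0.49 and -0.21, with 1 gene at least 2-fold higher in VEMD3 and 0, 0, 1, 3 and 2 lower from VEMD2 to VEMD8. Of all genes tested, 6.00% were 2-fold higher in VEMD3, and 2.39%, 4.62%, 5.04%, 8.15% and 5.21% were 2-fold lower from VEMD2 to VEMD8. After rescaling the median of these 15 genes in VEMD6 was -0.23, with 3 still 2-fold lower, against 4.42% of genes tested. None was then 2-fold higher in VEMD3, against 4.58%. Subunits of the DREAM and MuvB complexes, which repress or activate cell cycle promoters, had medians of 0.15, 0.12, -0.15, -0.59 and -0.19 over 5 genes, none of them 2-fold from WT, and rescaling turned the sign in VEMD3, to -0.01.

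**Figure D5:**
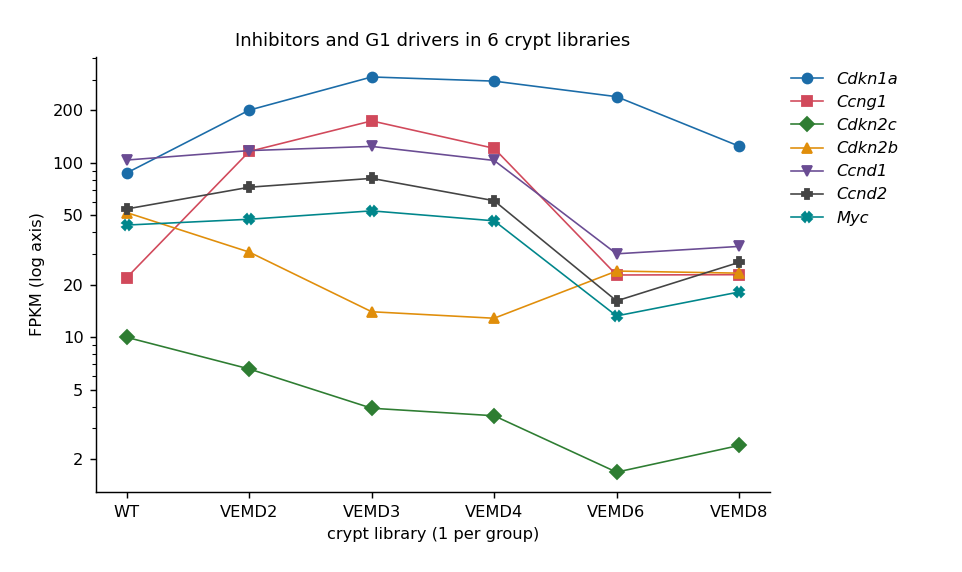
FPKM on a log axis in each crypt library, 1 point a library. Lines join the points of a gene. Shown are the kinase inhibitor genes Cdkn1a, Cdkn2c and Cdkn2b, the p53 target Ccng1, and 3 genes that drive the cycle (Ccnd1, Ccnd2, Myc). Cdkn1a is above WT in all 5 knockout libraries, Ccng1 is far above WT in VEMD2, VEMD3 and VEMD4, and Ccnd1, Ccnd2 and Myc are lowest in VEMD6 and next lowest in VEMD8.

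Markers of cell types also differed between the libraries, in patterns that were not the same for all types. Summed over 20 enterocyte markers, genes of the absorptive cells that have left the cycle, FPKM came to 15424 in WT, to 6956, 5024 and 11092 in VEMD2, VEMD3 and VEMD4, and to 31277 and 15129 in VEMD6 and VEMD8. The sum was thus lowest in libraries with high replication genes and highest in VEMD6. Of 19 tested markers, 10, 17, 6, 2 and 3 were 2-fold lower from VEMD2 to VEMD8, against 2.39%, 4.62%, 5.04%, 8.15% and 5.21% of genes tested. In VEMD6, 7 were 2-fold higher, or 12 after rescaling, against 5.04% and 7.95% of genes tested. The median ratio of 14 tested stem cell markers was 0.31, 0.53, 0.07, -1.01 and -0.44. From VEMD2 to VEMD8, 0, 4, 2, 0 and 0 of them were 2-fold higher, against 2.44%, 6.00%, 7.10%, 5.04% and 4.36% of genes tested. At least 2-fold lower were 0, 1, 2, 8 and 1, against 2.39%, 4.62%, 5.04%, 8.15% and 5.21%. After rescaling 2 were 2-fold higher in VEMD3, against 4.58%, and 3 lower in VEMD6, against 4.42%. FPKM of the 15 stem cell markers with values summed to 808 in WT and to 765, 591 and 383 in VEMD2, VEMD3 and VEMD4. In VEMD6 and VEMD8 they summed to 269 and 467. The sum was thus below WT also in VEMD2, VEMD3 and VEMD4, where the median ratio was above 0. Paneth cell markers summed to 30444 in WT and, from VEMD2 to VEMD8, to 42788, 22188, 8922, 2425 and 3863. Goblet markers came to 4487 in WT and to 4039, 2681, 5567, 1036 and 1663 in the same order. Enteroendocrine markers came to 334 in WT and to 422, 651, 293, 76.3 and 24.7. Paneth and goblet sums were thus lowest in VEMD6, and the enteroendocrine sum in VEMD8. The sums of 9 broad epithelial markers lay between 5128 and 6773 in all 6 libraries. The part of cell makeup in the values of the cell cycle genes was not tested.

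Cells from outside the epithelium contributed little RNA by their markers. The 19 leukocyte markers summed to 30.6 FPKM in WT and to between 19.6 in VEMD8 and 55.5 in VEMD4, with 10 of 19 under 1 FPKM in WT and S100a8 and S100a9 listed at 0 there. The 14 stroma markers summed to 3.58 in WT and to at most 7.69, in VEMD3, and 13 of 14 were under 1 FPKM in WT. Tuft cell markers summed to between 4.07 and 6.60 over 6 genes with values. Setdb1 was below WT in all 5 knockout libraries, from 9.42 FPKM in WT to 3.53 in VEMD6 and 7.03 in VEMD3. In VEMD6, 47.2% of all genes tested had their lowest value. A relation between the level of Setdb1 and that of the members was not tested. FPKM summed over all genes lay between 481519 in VEMD6 and 585501 in WT, and depth is unknown.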

How the data were processed

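RNA of 6 crypt libraries was measured by sequencing on a BGI-500 instrument, per the labels' protocols. The authors deposited FPKM per gene with 2 decimals, a unit that the file headers name. The tools HISAT2, featureCounts and edgeR and the builds GRCm38 and mm10 are listed, without versions, in the submitters' processing notes, and which tool made which table is not given in the sources used here. A deposited table of repeats in stem cells holds no member and was not used.

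Of 20718 lines, 3760 held no value, which left 16958 genes. Symbols, coordinates and promoters were matched by gene identifier to RefSeq on GRCm38.p6. The 10862 genes that averaged 1 FPKM or more over 6 libraries were tested, by size only. Ratios were taken as log2 of FPKM plus 1, with 2-fold as the mark. Rescaling divided each library by its median ratio to WT over genes above 0. FPKM give no counts, so depth, intervals over replicates and count models were not available. Scripts ran in Python 3.11.15 with pandas 2.3.3, numpy 2.4.6 and matplotlib 3.10.9, and the ratio and its 2-fold mark were tested on simulated data.

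The members and lists were chosen with earlier results of these data known. All 40 members may be named. From each other list the 4 genes with the largest ratio in any library could be named, besides Cdkn1a, Ccnd1 and Setdb1. Not all genes that this rule names are reported. Of the members, 11 overlap another protein-coding gene and 4 have a named pseudogene copy, so reads may be shared: Ccne2, Gins2, E2f1, Cdk2, Cdk4, Ccna2, Aurka, Kif20a, Cdc20, Foxm1 and Mcm7 overlap, and Pcna, Tyms, Ccnb1 and Ccnb2 have copies.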

Additional observations from a re-analysis of the deposited data

How the results depend on the processing

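Each of the 5 knockout libraries had 5 values recomputed under up to 5 alternatives, namely the medians of replication and mitotic genes, their difference, and the counts of members at least 2-fold higher and lower. Of 105 recomputed values, 96 stayed within 1.5 times the count, or, for medians, within the 95% order-statistic range of the list's members, combined over both lists for their difference. That range is a spread over genes and not an error between replicates, so it does not measure how firm a value is. Counts of 0 that stayed at 0 are among the 96. All 40 members average 5 FPKM or more, so no filter and a filter at 5 FPKM could not change these values and are not counted. A pseudocount of 0.1 FPKM and the changes of list membership took no value beyond these limits. With a pseudocount of 5 FPKM, no member was 2-fold higher in VEMD2 or VEMD4 (0 and 0), 2 were in VEMD3, 3 were 2-fold lower in VEMD6, and the medians of VEMD6 were -0.54 for replication and -0.68 for mitotic genes. With libraries rescaled to the median gene, 1 member was 2-fold higher in VEMD2 and 2 in VEMD3, 0 were 2-fold lower in VEMD6, and the medians of VEMD6 were -0.41 and -0.59. The larger pseudocount shrinks ratios of genes of low level by construction, and rescaling lifts all values of VEMD6. The mitotic median was below the replication median in all 5 libraries under the 5 alternatives that could change it. These alternatives all draw on the same members. In the lists of other genes the medians lay close together, and in VEMD8 their order was reversed, at -0.36 for replication and -0.34 for mitotic genes. No paired analysis was possible because there is a single library in every group, and for the same reason no replicate could be left out.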
